A study of Homo sapiens with 6 samples.

Results

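The genes described here encode 10 proteins that the liver secretes into blood plasma: ALB, TTR, TF, RBP4, AHSG, AMBP, HPX, VTN, SERPINA1 and AGT. They were chosen by Ensembl transcript ID, 1 transcript for each gene, from a list that pairs each ID with its symbol, by a rule that uses no measured value, though the list was drawn up with earlier results of these data known. All 10 IDs were found among the 65527 probe sets of the deposited table, where a probe set is a group of array probes summarised into 1 value for 1 transcript. All 10 also passed the filter on dim signal that left 33710 probe sets for testing.

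RNA came from HepG2, an established human liver tumour line that keeps many functions of hepatocytes. The boric acid group (3 arrays) had been given boric acid, a weak acid of boron, at 24 mM, the concentration labelled as IC50, for 24 hours. The control group (3 arrays) was untreated, and the labels name no mock treatment. Cells of both groups grew in low-glucose DMEM with serum, and the comparison concerns 1 dose and 1 time. Whether replicates were separate cultures is not stated in the labels, so the spread behind each p-value may be technical in part.

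Hepatocytes make most plasma proteins and release them through the endoplasmic reticulum and Golgi apparatus. Carrier proteins among them keep poorly soluble or reactive cargo such as fatty acids, thyroid hormone, retinol, iron and haem in solution, and their genes are used as signs of hepatocyte identity. The list is broader than its name, since SERPINA1 is a protease inhibitor, AGT a hormone precursor and VTN an adhesive protein. ALB, TTR, TF and SERPINA1, which are among the genes used as hepatocyte markers, had log2 signals of at least 9.43 on every array. The array medians lay between 6.84 and 6.92, and other cell types were not compared here. Of the other members, HPX read only 6.81 to 7.77, below the median of boric acid array 1 on that array, and VTN read 8.40 to 10.32.

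In boric acid, 9 of the 10 transcripts had a lower mean signal than in control cells, and 5 passed the test. At an adjusted p below 0.05, TTR, AGT, TF, AHSG and SERPINA1 fell (5 of 10) and none rose, with falls of 1.4-fold (SERPINA1) to 2.0-fold (TTR). ALB, AMBP and HPX had lower means as well, at 74.2%, 74.3% and 73.7% of control, but did not pass in this fit. With the replicate number as a block, ALB and AMBP passed too, which makes 7 of 10 (limma, adjusted p = 0.0250 and 0.0238). In that fit 16208 of all 33710 tested probe sets were called, and the labels do not say that equal numbers mark paired samples. Without control array 1, 2 or 3 the count of members was 3, 2 and 2, with TF and SERPINA1 called each time. Of all tested probe sets, 12077, 10166 and 10335 were called in those fits. RBP4 was within 1.19-fold of control by its 95% interval, and the mean of VTN was higher in boric acid, with a wide interval. On all 6 arrays without the block, 42.2% of all 33710 tested probe sets were called in either direction, 23% higher and 19.2% lower. The median log2 change was -0.46 over the 10 members and 0.02 over all tested probe sets. These are changes relative to the array as a whole, and fewer cells with a transcript cannot be told apart from less of it per cell. The test was limma's moderated test (3 arrays against 3) with Benjamini-Hochberg adjustment over all tested probe sets, and it is the source of each adjusted p below.

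**Figure D1:**
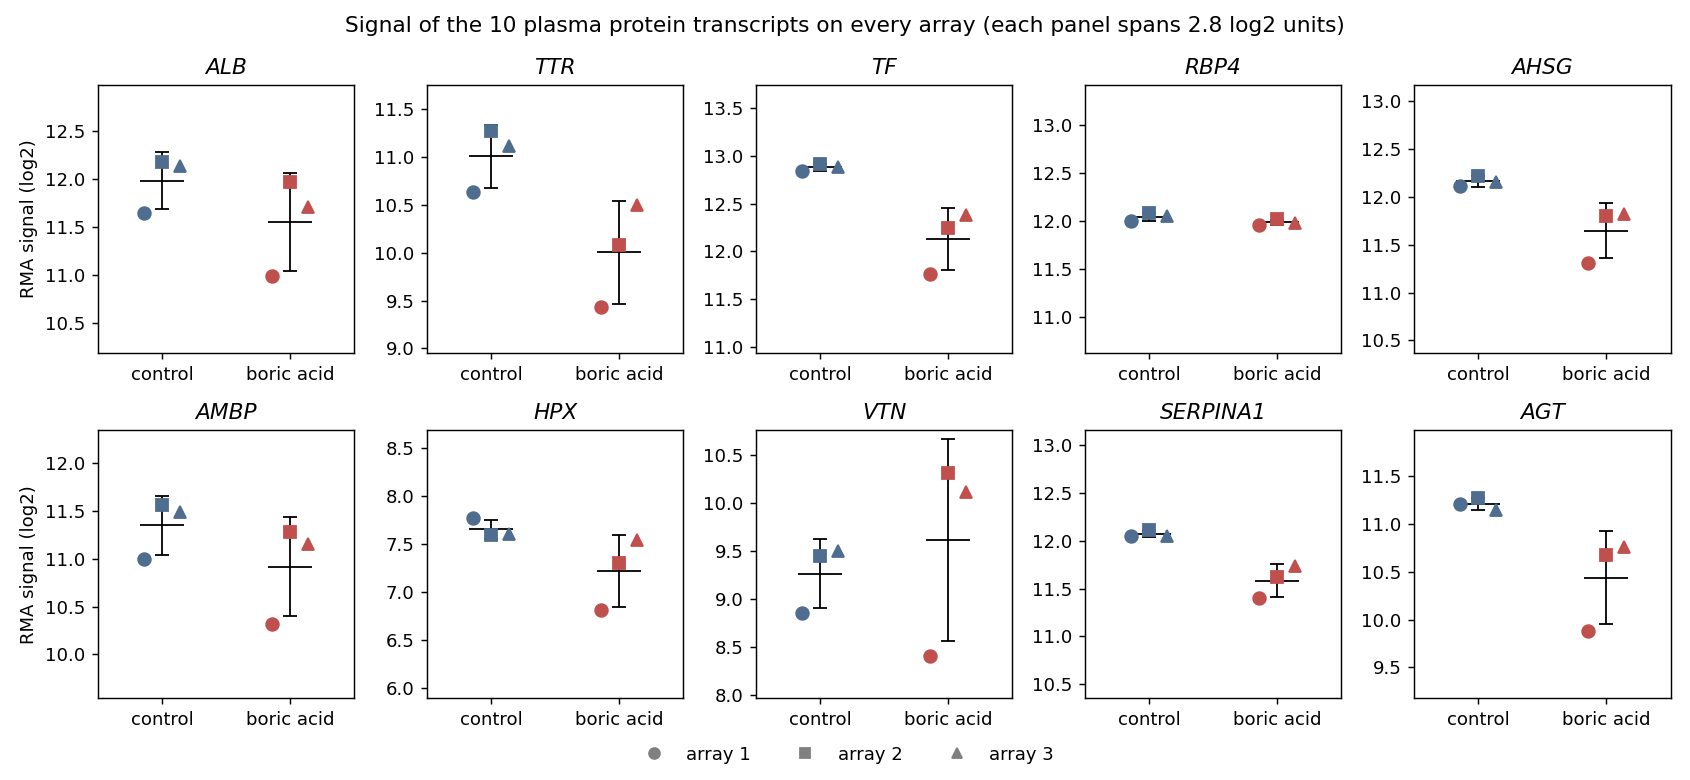
RMA signal on the log2 scale (y axis) of each of the 10 transcripts in the 3 control and 3 boric acid arrays, with marker shape giving the array number. Horizontal lines and bars are group means and SD. All panels have the same height in log2 units, each around its own midpoint, so levels cannot be compared across panels by eye. TF, AHSG, SERPINA1, AGT, TTR and HPX show no overlap between groups.

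The arrays of the 2 groups did not overlap for 6 of the 10 members, all with the boric acid arrays on the lower side: the 5 that fell, and HPX. Among all tested probe sets, 25.5% had all boric acid arrays below all control arrays. Boric acid array 1 was the lowest of its group for all 10 members, and control array 1 was the lowest of its group for 8 of them. An array 1 below arrays 2 and 3 in both groups was seen for 8 of the 10 members and for 23.4% of all tested probe sets. Over the whole table, boric acid array 1 differed from the other 2 treated arrays by a median of 0.17 and 0.18 on the log2 scale, and those differed from each other by 0.12. Without boric acid array 1 the 5 members that fell had smaller changes, and all 5 still passed. These changes were -0.72 for TTR, -0.56 for TF, -0.35 for AHSG, -0.39 for SERPINA1 and -0.49 for AGT. Both arrays numbered 1 were also left out together.

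Transthyretin (TTR, ENST00000237014), which carries thyroxine in plasma and holds retinol-binding protein in circulation, had the largest fitted decrease of the 10. Its log2 signal was 9.43, 10.08 and 10.49 on boric acid arrays 1 to 3 and 10.64, 11.26 and 11.11 on control arrays 1 to 3. All treated arrays lay below all controls, with a gap of only 0.14 between the nearest arrays. The means were 10.00 ± 0.53 and 11.00 ± 0.33 (SD, n = 3), a log2 fold change of -1.0 (limma, SE 0.28, adjusted p = 0.0245). TTR was the only member past a 2-fold change, which it exceeded narrowly, at 2.0-fold with a 95% interval of 1.27 to 3.15. Of all tested probe sets, 4.45% were called lower by at least 2-fold, and 1495 were called with a larger decrease than TTR. Without control array 2 or 3 the fall of TTR no longer passed (limma, adjusted p = 0.0840 and 0.0784), with changes of -0.87 and -0.95. Without boric acid array 1 the change of TTR was -0.72, below 2-fold, and it passed (limma, adjusted p = 0.0269). Over all alternatives its adjusted p ran from 0.0038 to 0.0840 (limma).

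RBP4 (ENST00000371464), the plasma carrier of retinol that travels bound to transthyretin, differed little between the groups. Its signal was 11.95, 12.01 and 11.98 in boric acid and 12.00, 12.08 and 12.04 in control cells. The groups overlapped and their SDs were among the smallest of the list, at 0.03 and 0.04. The log2 fold change was -0.06 with a 95% interval of -0.25 to 0.13 (limma, adjusted p = 0.592), an interval that does not reach the changes fitted for TF or AGT. Its size depended on the scaling, at -0.15 (95% interval down to -0.34) with repeated quantile normalization and -0.02 with centred arrays. Within each array the difference between the TTR and RBP4 signals was -2.52, -1.93 and -1.48 in boric acid and -1.36, -0.82 and -0.93 in control cells. Relative to RBP4, TTR thus changed by -0.94 on the log2 scale, with no overlap between the groups (exact permutation test, two-sided, p = 0.1, the smallest that 3 against 3 arrays allow). Signals of different probe sets depend on their probes, so only the shift of this difference between the groups carries information. The comparison of this pair was chosen after the values had been seen. It uses the same values as the separate changes of TTR and RBP4, so it is no further evidence.

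Transferrin (TF, ENST00000402696), which delivers ferric iron to cells, fell with the smallest adjusted p of the list. Its signal was 11.76, 12.25 and 12.38 in boric acid, against 12.84, 12.91 and 12.89 in control cells. The controls were tight, and the highest treated array lay 0.46 below the lowest control. Means of 12.13 ± 0.33 and 12.88 ± 0.04 (SD, n = 3) give a level of 59.5% of control (limma log2 fold change -0.75, SE 0.16, adjusted p = 0.0093). This call held without any single array, with adjusted p up to 0.0360 (limma).

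Hemopexin (HPX, ENST00000265983), which binds free haem and takes it to the liver, had a signal near the array medians, and background was not measured here. It read 6.81, 7.30 and 7.54 in boric acid and 7.77, 7.60 and 7.61 in control cells. The groups were separated by 0.05, less than the spread of the treated arrays. The log2 fold change of -0.44 (95% interval -0.87 to -0.01) did not pass after adjustment (limma, adjusted p = 0.0902). It depended on single arrays, since it was -0.60 and passed without boric acid array 3 (limma, adjusted p = 0.0370). When boric acid array 1 was left out, it was -0.24. The adjusted p of HPX ran from 0.0370 to 0.240 over the alternatives (limma).

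Albumin (ALB, ENST00000295897), the most abundant plasma protein and a carrier of fatty acids, bilirubin and many drugs, was lower on average but overlapped. Its signal was 10.98, 11.97 and 11.70 in boric acid and 11.64, 12.17 and 12.13 in control cells. Treated arrays 2 and 3 both lay above control array 1, although each treated array was below the control array of the same number, with differences of -0.65, -0.21 and -0.43. The means of 11.55 ± 0.51 and 11.98 ± 0.30 (SD, n = 3) differed by -0.43 (95% interval -1.05 to 0.19; limma, adjusted p = 0.225). With the replicate number as a block, the same change had an interval of -0.71 to -0.15 and passed (limma, adjusted p = 0.0250). When boric acid array 1 was left out, the change of ALB was -0.15 (limma, adjusted p = 0.546). The adjusted p of ALB lay between those values in the other alternatives.

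AMBP (ENST00000265132) encodes a precursor that is cut into alpha-1-microglobulin, a haem-binding scavenger, and bikunin, a protease inhibitor. Its values followed the pattern of ALB: 10.32, 11.28 and 11.16 in boric acid, and 10.99, 11.56 and 11.48 in control cells. Here too treated arrays 2 and 3 were above control array 1, while each lay below its own number. The change of -0.43 (95% interval -1.06 to 0.20; limma, adjusted p = 0.238) passed with the replicate block (limma, adjusted p = 0.0238). Leaving out boric acid array 1 gave -0.13 for AMBP (limma, adjusted p = 0.584). Those are the lowest and highest adjusted p of AMBP over the alternatives run.

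Fetuin-A (AHSG, ENST00000411641), which binds calcium phosphate in plasma and limits mineral deposits, fell. Its signal was 11.31, 11.79 and 11.82 in boric acid and 12.11, 12.22 and 12.15 in control cells. The nearest arrays of the groups were 0.29 apart. The means were 11.64 ± 0.29 and 12.16 ± 0.06 (SD, n = 3), so AHSG was at 69.8% of control (limma log2 fold change -0.52, SE 0.15, adjusted p = 0.0266). The AHSG row is not unique, since 1 other row of the table repeats its 6 values.

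The remaining pair that fell belongs to the serpin family. SERPINA1 (ENST00000393087) encodes alpha-1-antitrypsin, the main plasma inhibitor of neutrophil elastase. It read 11.40, 11.62 and 11.74 in boric acid and 12.04, 12.11 and 12.05 in control cells, with 0.31 between the nearest arrays. Its means of 11.58 ± 0.17 and 12.07 ± 0.03 (SD, n = 3) place it at 71.5% of control (limma log2 fold change -0.48, SE 0.11, adjusted p = 0.0108). The call of SERPINA1 held without any single array, with adjusted p up to 0.0429 (limma).

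Angiotensinogen (AGT, ENST00000366667), a serpin without inhibitory activity from which renin releases the precursor of active angiotensin, fell to 58.7% of control. Its signal was 9.88, 10.67 and 10.76 in boric acid and 11.20, 11.27 and 11.14 in control cells. The controls lay within 0.07 (SD) and the treated arrays spread over 0.48 (SD), with array 1 far below the others. The log2 fold change was -0.77 (SE 0.22; limma, adjusted p = 0.0281), and 2531 tested probe sets were called with a larger decrease. Without boric acid array 1 it was -0.49, a log2 change over 1.5 times smaller, and AGT still passed (limma, adjusted p = 0.0064). AHSG and AGT each missed the threshold when any 1 control array was left out, with adjusted p from 0.0553 to 0.0842 for AHSG and from 0.0682 to 0.0846 for AGT (limma). Over all alternatives, the lowest adjusted p was 0.0106 for AHSG and 0.0064 for AGT (limma).

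Vitronectin (VTN, ENST00000226218), an adhesive glycoprotein that binds integrins and stabilises the plasminogen activator inhibitor PAI-1, had the only higher mean in boric acid. It read 8.40, 10.32 and 10.11 in boric acid and 8.85, 9.44 and 9.50 in control cells. Treated arrays 2 and 3 were above every control, and treated array 1 was below every control. The mean difference of 0.35 had a 95% interval of -0.78 to 1.47 and did not pass (limma, adjusted p = 0.591). Without boric acid array 1 it was 0.95 (limma, adjusted p = 0.0083), and without both arrays numbered 1 it was 0.74 (limma, adjusted p = 0.0026). Without boric acid array 2 no difference was left, at -0.004 (limma, adjusted p = 0.996), and 0.0026 and 0.996 are the extremes of its adjusted p over the alternatives run. The direction of VTN in boric acid therefore rests on which treated arrays are counted, and the samples do not settle it.

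**Figure D2:**
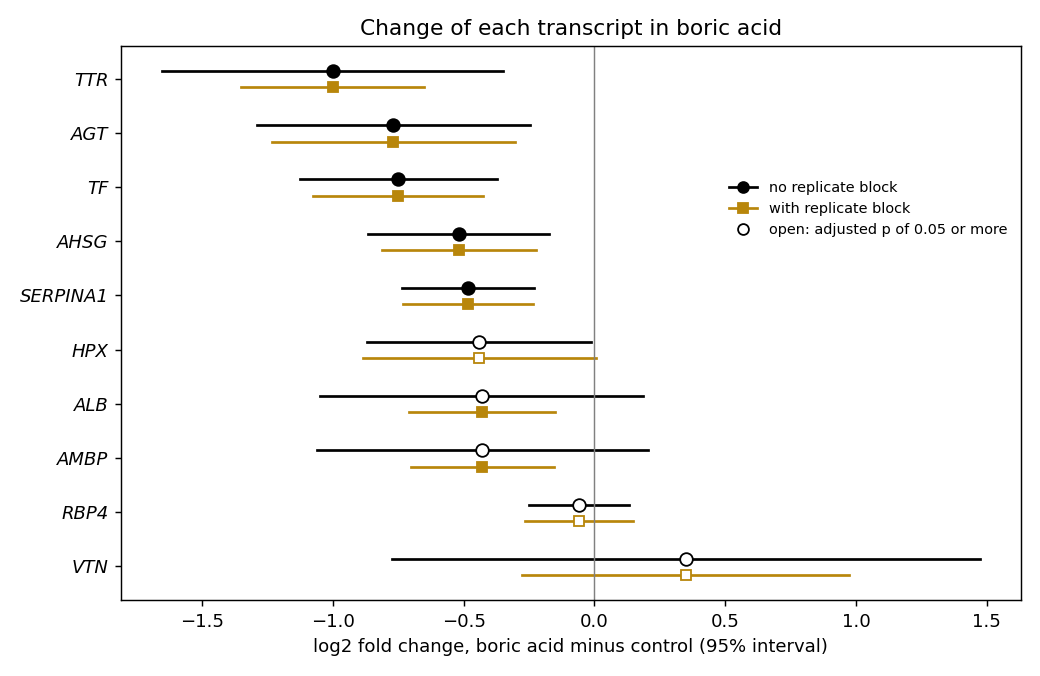
Log2 fold change of each transcript (x axis, boric acid minus control) with its 95% interval from the limma fit without (black circles) and with (yellow squares) the replicate number as a block. Filled symbols passed at an adjusted p below 0.05: 5 members without the block and 7 with it, where ALB and AMBP were added.

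Arrays of the same number were also compared with each other. A lower signal in boric acid in all 3 number pairs was seen for 9 of the 10 members, with VTN the exception, and for 33.2% of all tested probe sets. With the replicate block, 7 members were called lower and none higher, beside 22.2% of tested probe sets called lower in that fit. The largest drop lay in pair 1 for 9 of the 10, with RBP4 the exception. The share of all tested probe sets with this pattern was not computed, and boric acid array 1 stood apart over the whole table. For AGT the differences were -1.32, -0.60 and -0.38 in pairs 1 to 3, and for TF -1.08, -0.67 and -0.50. For TTR they were about equal in pairs 1 and 2, at -1.20 and -1.19, and smaller in pair 3, at -0.61. HPX was -0.96 in pair 1 and only -0.06 in pair 3. VTN was lower in pair 1, at -0.44, and higher in pairs 2 and 3, at 0.87 and 0.62.

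**Figure D3:**
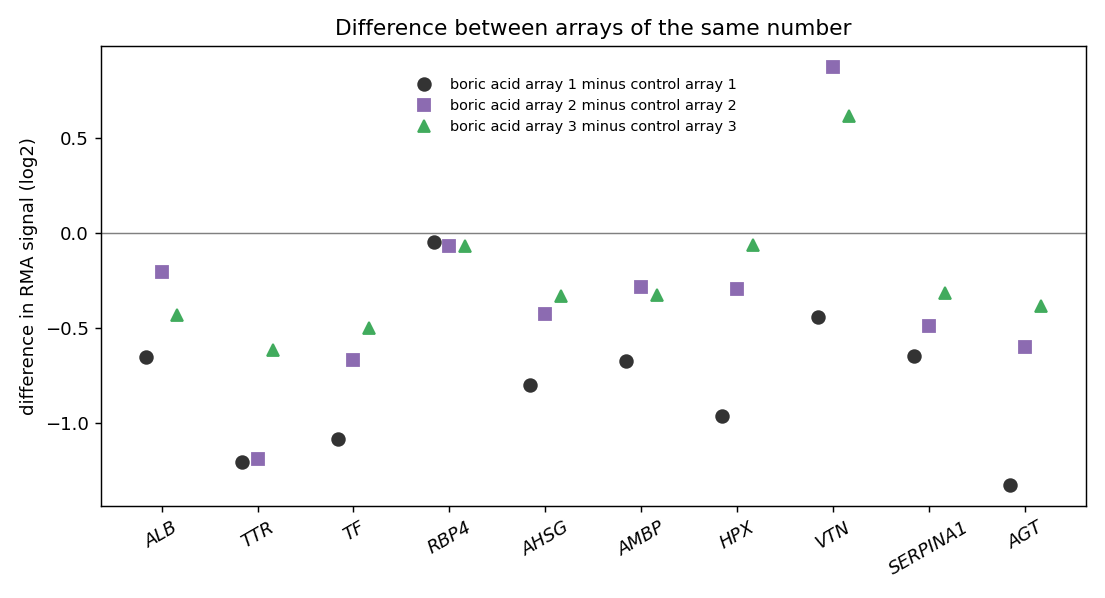
Difference in RMA signal (y axis, log2) between the boric acid and control arrays of the same number, for each transcript. Points below the line at 0 are lower in boric acid; all 3 points lie below it except for VTN, whose points for numbers 2 and 3 are at 0.87 and 0.62.

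The members differed in how the arrays numbered 1 stood apart. For ALB, TTR, AMBP and VTN, control array 1 minus the mean of control arrays 2 and 3 was -0.62 to -0.52, and the same difference in the boric acid group was -1.81 to -0.85. For the other 6, control array 1 was close to its group, with differences from -0.08 in AHSG to 0.17 in HPX. In that second set, boric acid array 1 was still lower than its group, with a difference of -0.04 in RBP4 and of -0.83 (AGT) to -0.28 (SERPINA1) in the others. The division into these sets was made after the values had been seen. Of the 5 members that fell, TF, AHSG, SERPINA1 and AGT belong to the set with uniform controls, and TTR does not. ALB and AMBP, which passed with the block and not without it on the 6 arrays, both belong to the set in which control array 1 was low. The sets, the test and the block use the same 6 values of each member. These matches therefore follow in part from the arithmetic and are no further evidence.

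**Figure D4:**
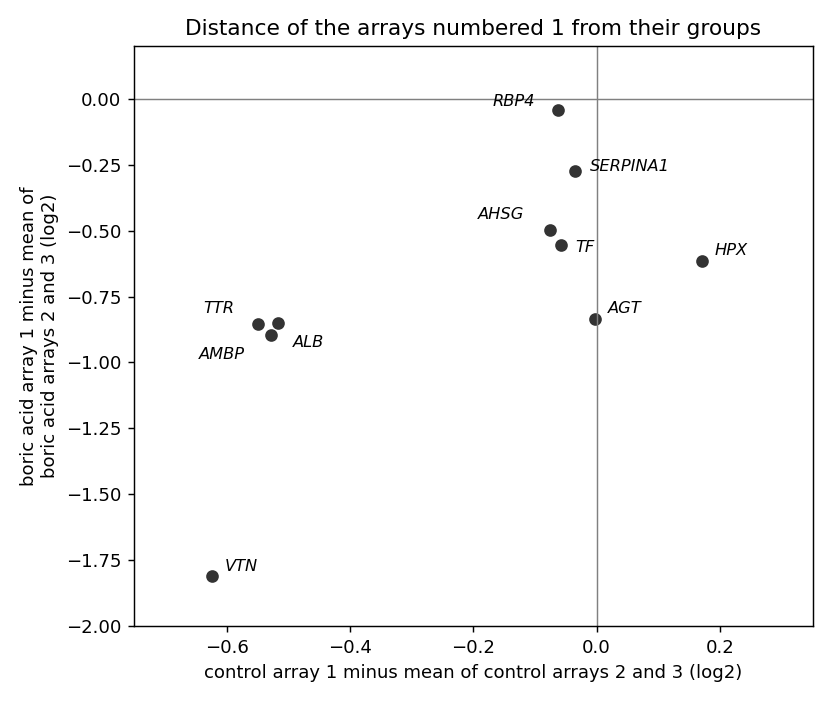
Signal of array 1 minus the mean of arrays 2 and 3 in the control group (x axis, log2) and in the boric acid group (y axis, log2), 1 point per transcript. ALB, TTR, AMBP and VTN lie at the left, at -0.52 or lower on the x axis, and all 10 points lie below 0 on the y axis.

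The DNA before the members' gene starts is shown with sequence motifs of factors known to act in hepatocytes. RefSeq promoters (GRCh38.p14) were found for 9 of the 10 members, all but TTR, with 13 gene starts among them, and the 250 bases before each start were searched on both strands. Motifs searched were the full HNF1 palindrome and its half-site (GTTAAT, contained in the palindrome), C/EBP (TTGCNNAA), HNF4 (CAAAGTCCA) and the TATA box (TATAAA). The C/EBP letters were present before 6 of the 13 starts, those of ALB, TF, RBP4, AHSG, HPX and VTN, and before 9.05% of 35116 RefSeq starts. The HNF1 half-site was present before 2 starts, of ALB and SERPINA1, against 6.23% of all, and the full HNF1 palindrome before none, against 0.0057%. The HNF4 letters were present in AHSG alone, and in 0.325% of all starts. TATAAA stood before 3 starts, 1 of AGT and 2 of RBP4, and before 10.7% of all. Of the 6 members with the C/EBP letters, TF and AHSG were called lower, and ALB, RBP4, HPX and VTN were not called without the block. Whether the letters go with the change was not tested. A match describes letters only.

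The 250 bases before the start are printed 5′ to 3′ for 4 members that fell and for VTN, whose direction the samples do not settle. Motif matches are in capitals, and where RefSeq gives several starts, the one with a match is shown.
TF, chr3:133746143-133746392, + strand: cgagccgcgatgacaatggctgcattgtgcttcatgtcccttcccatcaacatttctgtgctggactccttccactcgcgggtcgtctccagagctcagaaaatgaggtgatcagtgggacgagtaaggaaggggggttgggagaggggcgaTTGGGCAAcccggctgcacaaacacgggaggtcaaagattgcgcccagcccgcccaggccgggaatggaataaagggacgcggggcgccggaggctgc
AHSG, chr3:186612810-186613059, + strand: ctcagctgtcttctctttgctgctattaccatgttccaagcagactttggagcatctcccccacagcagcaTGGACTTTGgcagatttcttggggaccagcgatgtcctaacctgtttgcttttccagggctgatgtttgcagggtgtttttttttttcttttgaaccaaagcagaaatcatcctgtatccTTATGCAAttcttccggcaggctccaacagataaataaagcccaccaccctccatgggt
SERPINA1, chr14:94388603-94388852, - strand: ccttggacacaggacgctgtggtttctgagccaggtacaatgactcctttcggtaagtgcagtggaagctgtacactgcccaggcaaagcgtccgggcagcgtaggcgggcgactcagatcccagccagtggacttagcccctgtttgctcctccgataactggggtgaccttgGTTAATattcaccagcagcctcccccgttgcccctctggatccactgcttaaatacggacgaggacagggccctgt
AGT, chr1:230714123-230714372, - strand: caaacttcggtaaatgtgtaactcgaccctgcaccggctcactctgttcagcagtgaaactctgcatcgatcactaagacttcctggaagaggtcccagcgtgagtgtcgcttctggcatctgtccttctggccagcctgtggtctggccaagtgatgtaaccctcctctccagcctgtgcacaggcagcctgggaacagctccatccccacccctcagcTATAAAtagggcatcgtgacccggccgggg
VTN, chr17:28370308-28370557, - strand: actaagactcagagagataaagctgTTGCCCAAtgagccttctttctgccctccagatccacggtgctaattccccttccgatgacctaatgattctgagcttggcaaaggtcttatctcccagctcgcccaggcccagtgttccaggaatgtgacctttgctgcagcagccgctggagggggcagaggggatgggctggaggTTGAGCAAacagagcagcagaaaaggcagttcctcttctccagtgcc

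In TF the capitals mark a C/EBP match 98 to 91 bases before the start, on the minus strand. AHSG has its HNF4 match at 179 to 171 bases and its C/EBP match at 59 to 52 bases before the start. The HNF1 half-site of SERPINA1 lies 76 to 71 bases before the start, and TATAAA of AGT 30 to 25 bases before it. VTN has 2 C/EBP matches, at 225 to 218 and at 47 to 40 bases before the start.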

How the data were processed

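Total RNA of 3 boric acid and 3 control HepG2 samples was hybridised to Affymetrix whole-transcript arrays, 1 array per sample. The deposited values are log2 signals that the authors made with RMA, per the submitters' processing notes; no version, probe set definition or genome build is given in the sources used here. The log2 scale was read from the values. Quantile normalization within RMA removes changes of the whole distribution. Row IDs were not paired with genes by the table or the reference, so symbols come from the member list alone, and a further list of secreted liver proteins could not be tested.

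Probe sets above the table's median (6.89) on at least 3 of 6 arrays were tested: 33710 of 65527 (51.4%). The groups were compared with limma 3.58.1 (R 4.3.3; lmFit, eBayes, no covariate, two-sided; 4 residual and 3.34 prior degrees of freedom), after a check on simulated data. The number of arrays limits the precision, with a median standard error of 0.12. All 10 members were named, and values on every array were planned for those called; the other 5 were added. Alternatives were other filters, scalings and variance settings, a replicate block, and leaving out arrays.

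Replicate numbers are shared by the groups. Deviations from the group mean correlated between same-numbered arrays by 0.48, 0.17 and 0.20 over tested probe sets, each above the limit of 0.1 set for pairing. Deviations within a group are not independent. A deviation shared by the arrays numbered 1 makes arrays 2 and 3 tend to correlate across groups, whatever their numbers. The limit therefore cannot show pairing by number. The main fit has no block, and the blocked result is given where it changes a call. The labels do not state a pairing, and for arrays 2 and 3 the correlations did not single out equal numbers. Treated array 2 correlated more with control array 3 (0.38), and treated array 3 more with control array 2 (0.21), than with its own number. Members, motifs and lists were chosen with earlier results of these data known.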

Additional observations from a re-analysis of the deposited data

How the results depend on the processing

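Over 159 combinations of a member with an alternative, 144 kept the direction and the side of the threshold. The falls of TF and SERPINA1 passed in every alternative run, and those of TTR, AHSG and AGT in all 9 alternatives that kept the 6 arrays and without both arrays numbered 1 (a choice made after seeing the data). With the replicate block, ALB (-0.43) and AMBP (-0.43) passed as well and no other member's call changed. Without both arrays numbered 1, AMBP (-0.31) and VTN (0.74) passed, so that 1 member was called higher, beside 8178 of all tested probe sets. The count of members at 2-fold went from 1 to 0 with repeated quantile normalization, centred arrays, array weights and without both arrays numbered 1. Leaving out 1 array at a time gave 2 to 6 members called, 2 to 6 lower, 0 to 1 higher and 0 to 1 at 2-fold. Of all 33710 tested probe sets, 10166 to 14085 were then called, 4670 to 6516 lower, 5335 to 7569 higher and 2123 to 2848 at 2-fold. Changes then ranged from -0.64 to -0.15 for ALB, from -1.25 to -0.72 for TTR, from -0.88 to -0.56 for TF, from -0.08 to -0.04 for RBP4, from -0.61 to -0.35 for AHSG, from -0.61 to -0.13 for AMBP, from -0.60 to -0.24 for HPX, from -0.004 to 0.95 for VTN, from -0.56 to -0.39 for SERPINA1 and from -0.93 to -0.49 for AGT. VTN reversed without boric acid replicate 2 (-0.0038). Leaving out arrays widened some intervals and narrowed others. For AGT the interval was -1.29 to -0.25 on all 6 arrays and -0.72 to -0.27 without boric acid array 1. Without control array 1 the interval of AGT was -1.42 to -0.115. Causes of the differences between these alternatives were not tested. HPX was not tested under the stricter filter (75th percentile).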
